A study of Homo sapiens with 20 samples.

Results

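AMTN, ODAPH and HAPLN1 are 3 genes that HepaRG cells gave a clear signal for at the progenitor stage and almost none at any later stage. They were picked on measured values, for their large falls from day 4 to day 15 of culture, out of 35372 genes and transcripts on the array, so that what is said below of their own levels at D4 against D15 is a description without a test. HepaRG cells come from a human liver tumour, and their proliferating progenitors turn in culture into hepatocyte-like and biliary-like cells. All cultures grew in the same medium with serum, insulin and hydrocortisone, and 5 conditions of 4 arrays each were collected. D4 and D15 were cultures at day 4 and day 15 that had never received dimethyl sulfoxide (DMSO). D30 − DMSO cultures were kept without DMSO up to day 30, D30 + DMSO cultures received 2% DMSO from day 15 to day 30, and D34 ± DMSO cultures were treated like D30 + DMSO and then kept for 4 days without it. The 4 replicates of a condition are separate cultures of 1 cell line, so the spread given here is that between cultures, not between individuals. As a check of the labelled cells, all 8 hepatocyte markers examined, including ALB and APOA1, were well above background on all 20 arrays.

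AMTN encodes amelotin and ODAPH the odontogenesis-associated phosphoprotein, both secreted proteins best known from the cells that form and mature tooth enamel. Amelotin lies in the basal lamina between these cells and the enamel and belongs, like enamelin, osteopontin and the caseins, to the secretory calcium-binding phosphoproteins, while ODAPH is an acidic phosphoprotein that favours mineral formation and is mutated in inherited enamel defects. HAPLN1 encodes link protein, which in cartilage and other extracellular matrices holds proteoglycans such as aggrecan and versican on chains of hyaluronan. None of these genes is a usual marker of hepatocytes.

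Each gene was measured by 1 probe, namely that of transcript NM_212557 for AMTN, NM_178497 for ODAPH and NM_001884 for HAPLN1. The AMTN and ODAPH probes had 1 spot per array and the HAPLN1 probe had 2. To show what lies before the starts of 3 genes that were all highest at D4, the 250 bases upstream of each RefSeq start are printed here from 5′ to 3′ on the strand of the gene. Their positions in GRCh38.p14 are chr4:70518319-70518568 on the plus strand for AMTN, chr4:75555816-75556065 on the plus strand for ODAPH and chr5:83720856-83721105 on the minus strand for HAPLN1. Capitals mark matches, on either strand, to the short motifs listed after the sequences.
AMTN: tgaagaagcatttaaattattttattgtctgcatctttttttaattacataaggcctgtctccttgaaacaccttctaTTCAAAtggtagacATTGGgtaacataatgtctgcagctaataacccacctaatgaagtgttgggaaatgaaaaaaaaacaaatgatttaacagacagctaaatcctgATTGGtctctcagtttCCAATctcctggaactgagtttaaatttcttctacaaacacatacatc
ODAPH: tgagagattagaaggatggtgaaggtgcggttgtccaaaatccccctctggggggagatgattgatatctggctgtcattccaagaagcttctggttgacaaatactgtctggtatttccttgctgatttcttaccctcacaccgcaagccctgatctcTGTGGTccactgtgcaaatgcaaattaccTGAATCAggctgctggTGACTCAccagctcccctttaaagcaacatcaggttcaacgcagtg
HAPLN1: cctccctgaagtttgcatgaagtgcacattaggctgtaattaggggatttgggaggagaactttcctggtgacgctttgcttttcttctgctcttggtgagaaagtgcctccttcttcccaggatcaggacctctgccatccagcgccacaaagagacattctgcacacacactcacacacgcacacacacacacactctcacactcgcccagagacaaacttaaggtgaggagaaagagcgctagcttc

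The motifs searched were the TATA box TATAAA, the CCAAT box CCAAT, the GC box GGGCGG, the RUNX motif TGTGGT, the SOX motif AACAAT, the AP-1 motif TGANTCA and the cell cycle motif known as CHR, TTTGAA. The AP-1 motif reads the same on both strands and was counted once. AMTN held CCAAT at 3 places, the nearest of them 48 to 44 bases before the start, and 1 TTTGAA match on the reverse strand. CCAAT occurred in 32.0% and TTTGAA in 13.3% of the 35116 RefSeq promoters of the same length. ODAPH held 2 matches to TGANTCA, 62 to 56 and 46 to 40 bases before the start, and 1 to TGTGGT, which occurred in 6.57% and 10.98% of promoters. HAPLN1 held no match. The motifs found in none of the 3 windows occurred in 10.72% (TATAAA), 42.64% (GGGCGG) and 8.98% (AACAAT) of promoters. The 3 windows thus shared no searched motif, and a match is only a run of letters, not a site at which binding was measured. All of them were poorer in G and C than most promoters, with 33.2% for AMTN, 48.4% for ODAPH and 50.8% for HAPLN1 against a median of 58.0%, and they held 0, 3 and 5 CpG dinucleotides against a median of 11.

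The level of each gene is given as scaled signal, in intensity units. This is the background-subtracted signal of the scanner software after each array was brought to a common 75th percentile of 384, and it can fall below 0. The software also states for each spot whether its signal is well above background, given the noise around it. A log2 value is taken relative to the 75th percentile after signals below 1 were set to 1. The arrays were of similar quality, with 61.1% to 74.2% of spots well above background, 75th percentiles of 283 to 530 before scaling and correlations of 0.955 to 0.992 between arrays of 1 condition.

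AMTN was bright at D4. Its scaled signals on the 4 arrays were 834, 668, 959 and 684, and all 4 were well above background. At D15 they were 19.7, 16.5, 18.4 and 5.36, with replicates 2 and 3 well above background, so that the lowest D4 array stood far above the highest D15 array. The mean fell from 786 ± 137 (SD, n = 4) to 15.0 ± 6.56 (SD, n = 4), which is 1.91% of D4, and the geometric means differed 58.1-fold. Replicate 4 of D15 was the low one, and without it the difference was 42.8-fold.

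The later conditions divided AMTN into a low and a lower level. On the D30 − DMSO arrays it read 13.8, 7.38, 17.3 and 9.42, close to D15, with 1 array well above background. In D30 + DMSO cells it read 1.36, 1.63, 2.12 and 4.60, with none of the 4 arrays well above background. On the D34 ± DMSO arrays it read 5.48, 12.8, 14.6 and 16.9, again with 1 array well above background. The highest D30 + DMSO array therefore lay under the lowest array of D30 − DMSO and of D34 ± DMSO, at signals mostly not well above background. The share of all genes tested that separate in this way was not counted, so nothing is read from the separation. As a second yardstick, the spot exceeded the 95th percentile of the negative control spots of its own array on all 4 arrays of D15, D30 − DMSO and D34 ± DMSO and on 2 of 4 in D30 + DMSO.

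ODAPH was dimmer and was measured above background in D4 cells only. Its scaled signals at D4 were 63.6, 150, 127 and 125, all well above background, with a mean of 116 ± 37.0 (SD, n = 4). At D15 they were 1.52, 6.37, 0.42 and 1.56, and none was well above background. The D4 level was at least 15.1-fold higher than that of D15. The dim side of this bound is, on each D15 array, the higher of 2 values. These are the ODAPH signal itself and the weakest signal that the software still called well above background. On D15 replicate 2 the ODAPH signal was not called, although it exceeded that weakest signal (6.37 against 3.59). That weakest signal is thus not a detection limit for each spot. The folds given here as at least hold by this rule only. Replicate 1 was the lowest of the D4 arrays and the groups did not overlap.

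At the later stages ODAPH stayed in the noise. On the D30 − DMSO arrays it read 4.33, 2.08, 11.7 and −0.56, and on the D30 + DMSO arrays 0.70, −1.01, −0.72 and −0.09. On the D34 ± DMSO arrays it read 1.65, 5.53, 7.06 and −1.98. All 12 of these were not well above background, although 2 arrays of D30 − DMSO, none of D30 + DMSO and 3 of D34 ± DMSO exceeded the 95th percentile of the negative controls. D4 was at least 15.0-fold higher than D30 − DMSO, at least 15.8-fold higher than D30 + DMSO and at least 18.0-fold higher than D34 ± DMSO.

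HAPLN1 was the least even of the 3 at D4, with scaled signals of 54.3, 318, 36.5 and 26.8, all well above background. Replicate 2 stood apart. Its 2 spots, before scaling, read 169 and 631, while both spots of the other D4 arrays agreed closely (72.3 and 77.3, 41.1 and 41.4, 32.5 and 32.5). The negative controls of that array also spread more widely, with a 95th percentile of 35.4 against 1.16 to 4.23 on the other D4 arrays, and the part of this in the HAPLN1 value was not tested. The D4 mean was 109 ± 140 (SD, n = 4), and 39.2 ± 13.9 (SD, n = 3) without replicate 2.

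At D15 HAPLN1 read 2.31, 3.74, 0.61 and 0.72, none well above background. D4 was at least 9.98-fold higher, and at least 5.85-fold higher without replicate 2 of D4. Over the other 12 arrays the signal ran from −4.41 to 0.80. None of these was well above background or above the 95th percentile of the negative controls, so HAPLN1 had no measurable signal at D30 or D34. The D4 level was at least 9.47-fold above D30 − DMSO, at least 9.12-fold above D30 + DMSO and at least 10.7-fold above D34 ± DMSO.

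**Figure D1:**
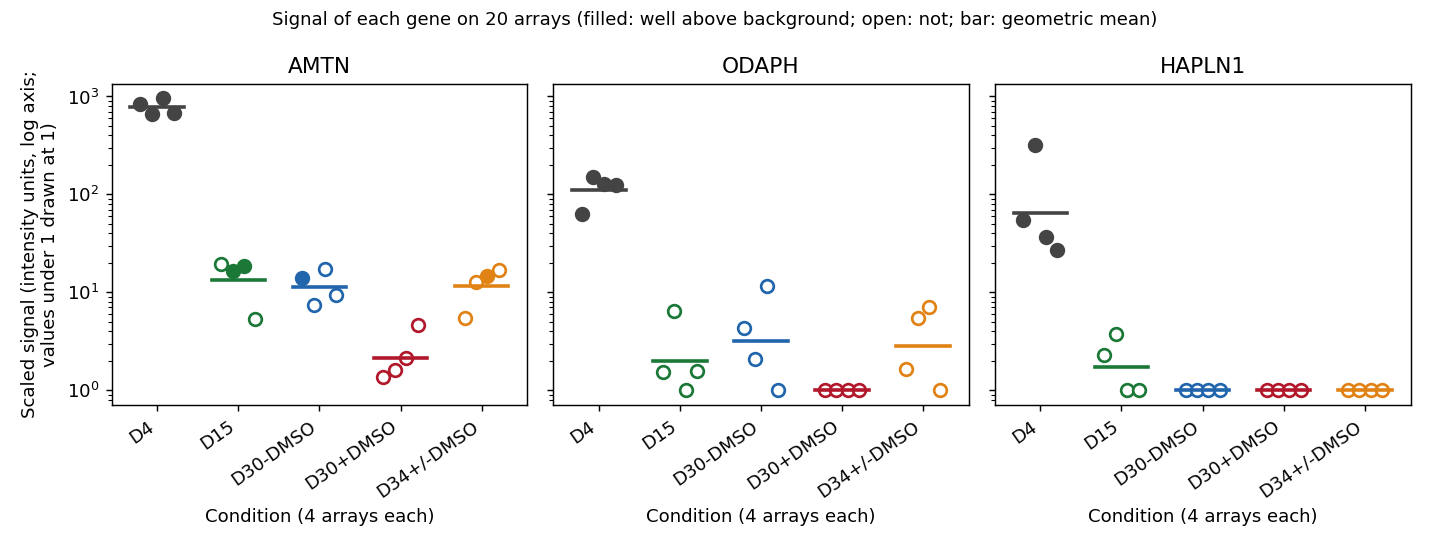
Scaled signal of AMTN, ODAPH and HAPLN1 (log axis, intensity units) on the 20 arrays by condition, with filled points well above background, open points not, values under 1 drawn at 1 and bars at the geometric mean of 4 arrays. The D4 arrays of every gene stand above all others, and AMTN in D30 + DMSO, at 1.36 to 4.60, is the lowest of its 5 conditions.

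Ranked by fitted fall from D4 to D15 among the 22221 genes tested, AMTN was the second, ODAPH the third and HAPLN1 the fifth. ODAPH and HAPLN1 had no D15 array well above background, so their fitted ranks rest on D15 values below that level, and their falls were bounded only as at least 15.1-fold and at least 9.98-fold. CNN1, a smooth muscle calponin, ranked first with a 64.7-fold fall, and an unnamed transcript, ENST00000367072, stood between ODAPH and HAPLN1. Just outside stood POSTN, the matrix protein periostin, with 32.8-fold, and IGFL3 with 31.6-fold, both measured well above background on all D4 and D15 arrays and both larger than the bounds of ODAPH and HAPLN1. HAPLN1 stood just inside with a fitted 37.4-fold. The order rests on single arrays, since AMTN moved between ranks 1 and 4 when 1 D4 or D15 array was left out, ODAPH between 1 and 5 and HAPLN1 between 4 and 9. All 3 genes were among the genes called lower at D15, which were 3.82% of all tested, and the choice of the genes fixed this.

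ODAPH and HAPLN1 were among 10 genes (0.045% of those tested) that were well above background on all 4 D4 arrays and on none of the other 16. The others with a symbol were CD274, the immune checkpoint ligand PD-L1, CSRP3, a muscle LIM protein, and PSG9, a pregnancy-specific glycoprotein. Since the 3 genes were picked for their fall from D4, nothing is read from their place in this set.

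The comparisons that the choice of genes did not use were those among D30 − DMSO, D30 + DMSO and D34 ± DMSO. All 3 genes entered the genes tested only through D4, since no other condition had any of them well above background on all 4 arrays. Their place among the genes tested thus still depended on the condition that chose them. Genes were called there by limma at a Benjamini-Hochberg adjusted p below 0.005 over all genes tested and more than 2-fold. D30 + DMSO takes part in the first 2 of these comparisons, so they are not independent of each other.

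The first comparison asked what DMSO from day 15 did to the little signal left. AMTN was lower in D30 + DMSO than in D30 − DMSO cells, by a log2 difference of −2.40 (SE 0.44, adjusted p = 0.000724). Raising each D30 + DMSO signal to the lowest signal well above background on its array left a 1.62-fold difference. No D30 + DMSO array and only 1 D30 − DMSO array were well above background, so this is not a bound in signal above background. The call ended when signals below 10 were set to 10 (−0.31, adjusted p = 0.405) and under normexp background correction (−0.19, adjusted p = 0.289). On the 2 slides that carried both conditions the difference was −3.22 and −1.59. ODAPH was not called by limma (adjusted p = 0.114, unadjusted 0.0273). All HAPLN1 signals in both conditions were below 1 and were set to 1, so its difference was 0 by construction and was not tested. No fold is given for either gene because neither condition had an array well above background. Thus 1 of the 3 genes was called lower, beside 4.14% of all genes tested (and 1.73% called higher).

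The second comparison asked whether any of them came back 4 days after DMSO was withdrawn. No culture of the same age was kept in DMSO, so removal apart from 4 more days of culture was not tested. Here and below, the words after removal name this comparison and not a cause. AMTN was higher in D34 ± DMSO than in D30 + DMSO cells, with a log2 difference of 2.41 (SE 0.44, adjusted p = 0.00056). Raising the D30 + DMSO signals in the same way left 1.63-fold. Only 1 D34 ± DMSO array was well above background, so this too is not a bound in signal above background. With the floor of 10 the difference was 0.42 (adjusted p = 0.222) and with normexp 0.17 (adjusted p = 0.334), neither of them called, and it also missed the threshold with quantile normalization (2.06, adjusted p = 0.00547). On the 2 slides with both conditions it was 2.59 and 2.43. ODAPH was not called (adjusted p = 0.15, unadjusted 0.0456). HAPLN1 was again set to 1 on every array of both conditions, so its difference was 0 by construction. Neither gene had an array well above background on either side. One gene of 3 was thus called higher, beside 5.08% of all genes tested (and 1.98% called lower).

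**Figure D2:**
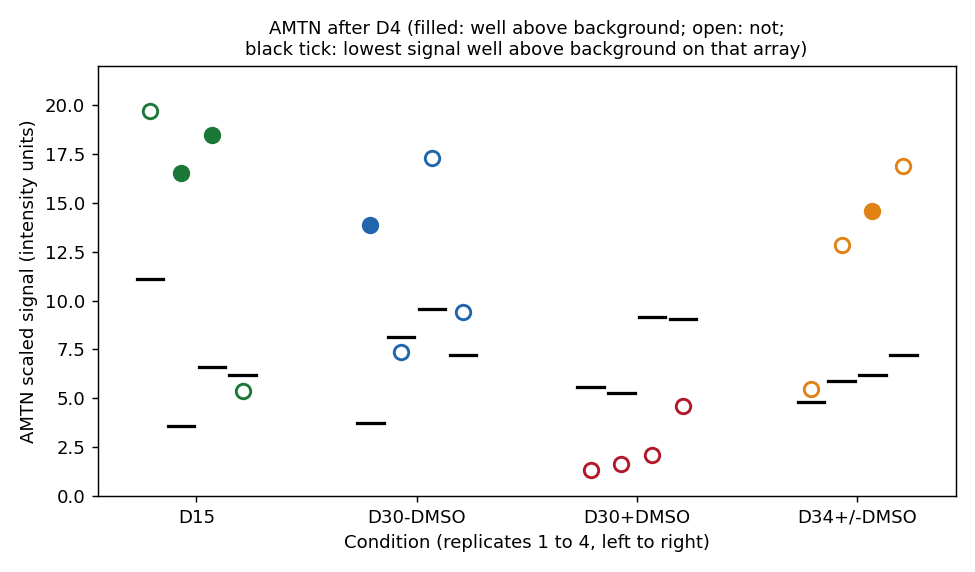
AMTN scaled signal (linear axis, intensity units) on the 16 arrays after D4, in replicate order within each condition, with filled points well above background, open points not, and a black tick at the lowest signal called well above background on that array. All 4 D30 + DMSO points, 1.36 to 4.60, lie under their ticks, while points of the other conditions lie around or above theirs.

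Against cells of day 30 that had never seen DMSO, AMTN at D34 ± DMSO did not differ detectably, with a log2 difference of 0.01 (SE 0.44, adjusted p = 1). On the 3 slides with both conditions it was −0.43, −0.63 and 0.84, of both signs. The D34 ± DMSO cultures were also older, and no culture of their age that had never received DMSO was collected. AMTN and ODAPH were not called in this comparison and had no unadjusted p below 0.05, and HAPLN1 was again set to 1 on every array. Of all genes tested, 1.31% were called higher and 0.189% lower. The D34 ± DMSO mean of 12.4 ± 4.93 (SD, n = 4) was 1.58% of the D4 mean, beside 1.52% for D30 − DMSO, while D4 was at least 111-fold above D30 + DMSO, where no array was well above background. Ordered by mean, AMTN ran from D4 through D15, D34 ± DMSO and D30 − DMSO to D30 + DMSO, and the 3 middle conditions, at 15.0, 12.4 and 12.0, lay within their SDs of each other.

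**Figure D3:**
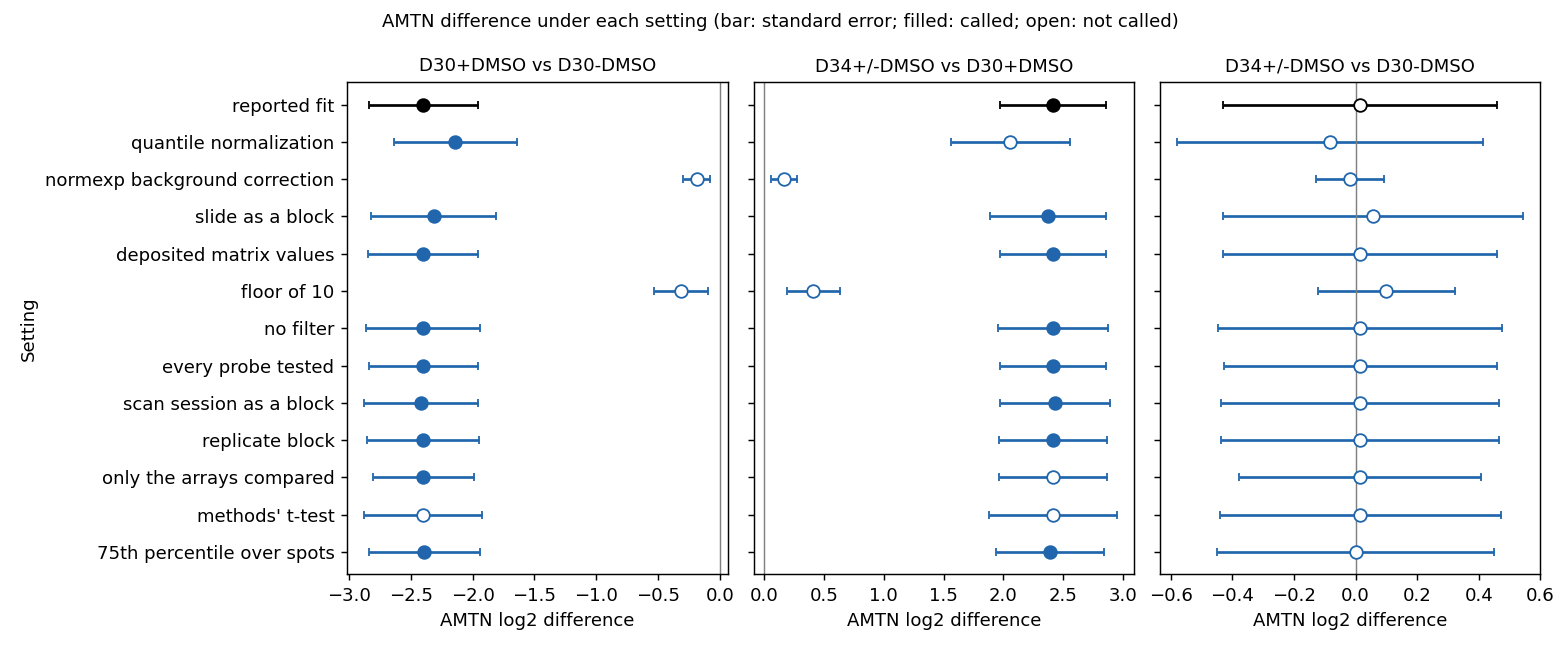
AMTN log2 difference (horizontal axis, bars 1 standard error, filled points called and open points not) in the 3 comparisons that the choice of genes did not use, for the reported fit and each other setting. The first 2 differences lie near −2.4 and 2.4 in most settings and shrink to −0.19 and 0.17 with normexp and to −0.31 and 0.42 with a floor of 10, while the third stays near 0.

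Of the 848 genes called lower at D15 than at D4, 433 (51.1%) were called higher in D34 ± DMSO than in D30 + DMSO cells. Of all genes tested 5.08% were. AMTN was among the 433 and ODAPH was not. Of the same 848 genes, 143 (16.9%) were called lower in D30 + DMSO than in D30 − DMSO cells, beside 4.14% of all genes tested, again with AMTN and without the other two. No difference between the 3 genes and the rest of the 848 was tested.

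Of 20 genes of DNA replication and mitosis, 19 were called lower at D15 than at D4, beside 3.82% of all genes tested. Their median log2 difference was −2.04, beside 0.02 over all genes. With DMSO addition 0 were called, beside 4.14% of all genes called lower and 1.73% higher (6 were lower at an unadjusted p below 0.05). After its removal 19 were called higher, beside 5.08% of all genes (median 2.56, beside −0.04 over all genes). With 16 of 20 called higher, beside 1.31% of all genes tested, they also exceeded D30 − DMSO at D34 ± DMSO (median 2.30). This count was 8 with only the arrays compared and 9 or 10 without D30 − DMSO replicate 1, 2 or 3 or D34 ± DMSO replicate 4. The methods' t-test called 5 of them after removal and 0 in D34 ± DMSO against D30 − DMSO. Their summed scaled signal was 56495 to 72566 at D4, 14810 to 23630 at D15, 11403 to 15645 in D30 + DMSO and 41779 to 64415 in D34 ± DMSO cells. The ranges of D4 and D34 ± DMSO overlapped for this sum.

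Of 22 secretory calcium-binding phosphoprotein genes other than AMTN, 8 were bright enough to test. The enamel matrix genes AMELX and ENAM and the bone and dentine genes DMP1, DSPP and IBSP were not, and AMBN, the ameloblastin gene next to AMTN, was dim and was not called anywhere. At D15, 2 genes were higher (5.68% of all genes were) and 1 was lower (3.82% of all genes were). SPARCL1, a matricellular protein, was at least 10.3-fold higher at D15, SPP1, which encodes osteopontin, rose by 1.67 on the log2 scale (SE 0.25), and SPARC, a collagen-binding relative, fell by 1.70 (SE 0.14). With DMSO, SPP1 fell by 1.78 (SE 0.25) and SPARC fell by 1.17 (SE 0.14), and after removal SPP1 rose by 2.24 (SE 0.25). SPARC was 0.93 higher after removal (SE 0.14, adjusted p = 9.49e-05), short of the 2-fold limit. The medians of the 8 genes were 0.68 at D15, −0.86 with DMSO and 0.40 after removal, beside 0.02, 0.04 and −0.04 over all genes, and 2 of 8 were called lower with DMSO, beside 4.14% of all genes. The SPARC call with DMSO ended under normexp, and both SPP1 calls ended under the methods' t-test. SPP1 was thus lower with DMSO and higher after removal, as AMTN was, but higher at D15 than at D4, while SPARC had the sign of AMTN in each of these comparisons.

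Of 17 other enamel genes, 11 were tested. At D15, FAM20A, a pseudokinase that activates the secretory kinase FAM20C, rose by 2.37 (SE 0.35) and TUFT1, tuftelin, fell by 2.33 (SE 0.23). The enamel proteases differed in detection, with MMP20 not bright enough to test and KLK4 tested but not called. ITGB6, an integrin subunit that ameloblasts use, fell by 3.70 with DMSO (SE 0.67) and rose by 3.36 after removal (SE 0.67). LAMA3, a basement membrane laminin chain, moved oppositely, up by 1.53 (SE 0.22) and then down by a log2 difference of −1.06 (SE 0.22). Both ITGB6 calls ended with a floor of 10, under normexp, with only the arrays compared and under the methods' t-test, and the call after removal ended also without D30 + DMSO replicate 1 or 4. ITGB6 was well above background on 1 of the 4 D30 + DMSO arrays. The LAMA3 call after removal ended under normexp, with only the arrays compared, under the methods' t-test, and without D30 + DMSO replicate 4 or D34 ± DMSO replicate 1 or 3. The medians of this list were −0.01 at D15, −0.06 with DMSO and 0.07 after removal, beside 0.02, 0.04 and −0.04 over all genes.

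Of 23 other genes of the hyaluronan matrix in which HAPLN1 works, 16 were tested. HAS2, an enzyme that makes hyaluronan, BCAN, TNFAIP6 and LYVE1 were among those not bright enough. At D15, 3 of the 16 were called lower and 0 higher, beside 3.82% and 5.68% of all genes tested, with a median log2 difference of −0.41. HMMR, a hyaluronan receptor that is also a mitotic protein, fell by 2.51 (SE 0.24), CEMIP, which degrades hyaluronan, fell by 2.43 (SE 0.37), and CD44, the main hyaluronan receptor, fell by 1.04 (SE 0.14), just past the 2-fold limit, and it was not called with the slide as a block or without D4 replicate 2 or 3 or D15 replicate 4. After DMSO removal HMMR was higher by 3.21 (SE 0.24) and CD44 by 1.08 (SE 0.14). VCAN, the proteoglycan versican whose gene adjoins HAPLN1, had a log2 difference of −1.29 at D15 (SE 0.52, adjusted p = 0.083) and 1.74 after removal (SE 0.52, adjusted p = 0.0215), neither of them called. ACAN, aggrecan, and the other link protein genes HAPLN2 and HAPLN3 were called in no comparison. HAPLN4 was called higher with DMSO (1.59, SE 0.37), with 1 of 4 D30 − DMSO arrays well above background. The call held in 8 of 19 other settings. It was lost without any 1 of the D30 + DMSO arrays or without D30 − DMSO replicate 3 or 4. It also ended under normexp, with no filter, with only the arrays compared, under the methods' t-test and with the percentile over spots.

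Among transcription factors known from tooth and cartilage, 13 of 21 were tested. At D15, 3 were called lower and 1 higher, beside 3.82% and 5.68% of all genes tested. Among them RUNX1 fell by 1.22 (SE 0.23) and LEF1 fell by 1.18 (SE 0.19), while SOX6 rose by 1.67 (SE 0.18). RUNX2, the osteoblast factor, and SOX5 were not bright enough to test. LEF1 was called higher after DMSO removal (1.15, SE 0.19), and SOX9, a cartilage and bile duct factor, was called higher with DMSO (1.30, SE 0.26) and lower after removal (−2.07, SE 0.26). Over all genes 1.73% were called higher with DMSO, and 5.08% higher and 1.98% lower after removal. The SOX9 call with DMSO was lost without D30 − DMSO replicate 2, 3 or 4 or D30 + DMSO replicate 3 or 4, and under normexp. Both SOX9 calls ended under the methods' t-test. Under normexp the calls of RUNX1 at D15 and of LEF1 after removal ended. The LEF1 call after removal ended also with only the arrays compared and under the methods' t-test. Of 8 chondrocyte markers tested, 1 was called lower at D15, beside 3.82% of all genes. This was MATN3, matrilin 3, which fell by 1.81 (SE 0.36) but was not called with quantile normalization or normexp. It was also called lower in D30 + DMSO than in D30 − DMSO cells. That call ended under the same settings, with only the arrays compared and under the methods' t-test. The difference was 3.46-fold with the dim side raised as for AMTN, and only 2 of 4 D30 − DMSO arrays were well above background. The defining genes COL2A1 and COMP were not bright enough to test.

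Some markers of mesenchymal cells ran in the same directions as AMTN. Of 9 such genes 6 were tested, and COL1A2, PDGFRB and THY1 were not bright enough. Of the 6, 2 were called lower at D15, 2 lower with DMSO and 2 higher after its removal. The shares of all genes tested with these calls were 3.82%, 4.14% and 5.08%. The median log2 differences of the 6 were −0.92, −1.91 and 1.21, beside 0.02, 0.04 and −0.04 over all genes. ACTA2, COL3A1 and DES were called in no comparison, and the differences of DES were −0.09, −0.21 and 0.13. The summed signal of the list was 13338 to 21490 at D4, 6268 to 9235 at D15, 5665 to 11032 in D30 − DMSO, 2053 to 2641 in D30 + DMSO and 5886 to 11715 in D34 ± DMSO cells. COL1A1 (−1.93, SE 0.42) and LUM (−2.30, SE 0.24) were lower at D15, though COL1A1 was not called without D4 replicate 1 or 4 or D15 replicate 2, 3 or 4. DCN at D15 was −0.99 (SE 0.34, adjusted p = 0.0434), not called. DCN (−2.98, SE 0.34) and LUM (−2.68, SE 0.24), which encode the small collagen-binding proteoglycans decorin and lumican, were lower with DMSO and higher after removal (2.99 and 2.45). The part of these markers in the AMTN differences was not tested, and in RNA of whole cultures fewer cells of a kind and less RNA per cell cannot be told apart. Of the leukocyte and endothelial markers, CD68 rose at D15 (1.39, SE 0.22). The other markers tested were called in no comparison, with differences at D15 of 0.04 for PTPRC, 0.66 for CD14, −0.29 for CDH5 and 0.13 for KDR. PECAM1, VWF and CD3E were not bright enough to test. The bile duct markers KRT7 and KRT19 were called in no comparison. All 8 hepatocyte markers were called higher at D15, beside 5.68% of all genes tested. In the later comparisons 0 were called, and 3 were higher with DMSO and 3 lower after removal at an unadjusted p below 0.05.

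**Figure D4:**
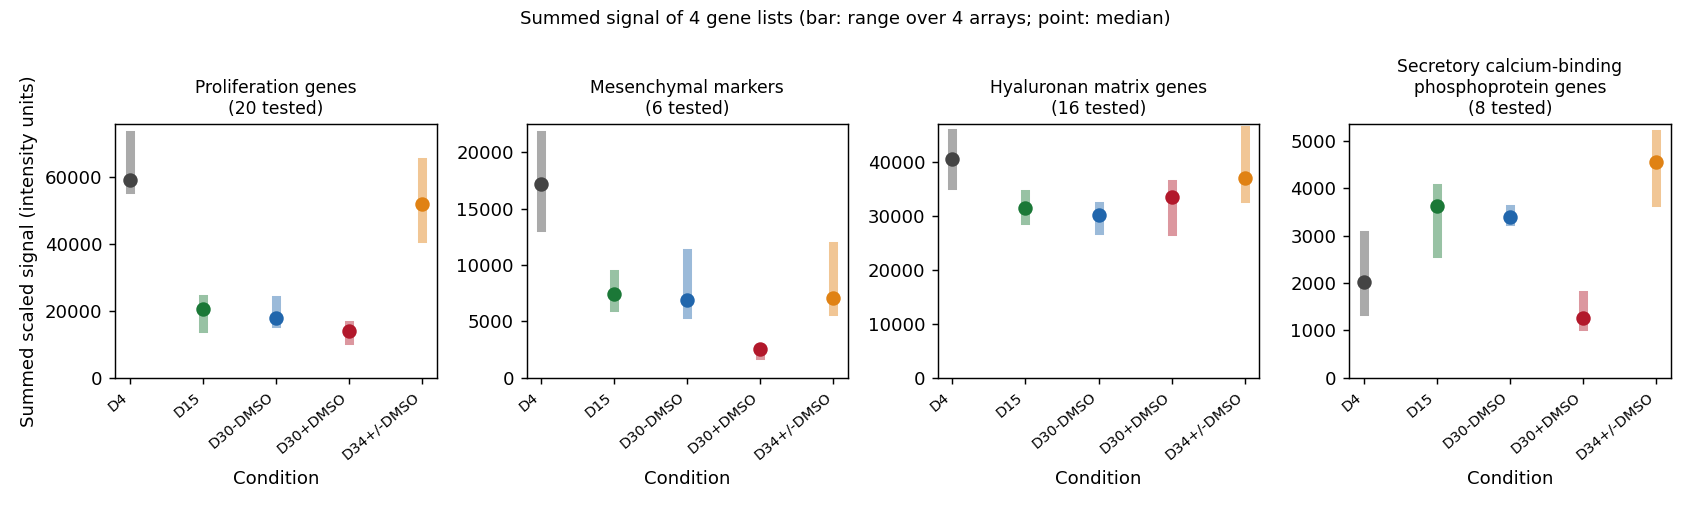
Summed scaled signal (linear axes from 0, intensity units) of 4 gene lists by condition, with bars for the range over 4 arrays and points for the median. The proliferation sum of D34 ± DMSO reaches the D4 range, while the mesenchymal sum is lowest in D30 + DMSO cells, at 2053 to 2641.

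AMTN lies on chromosome 4 among genes of saliva and enamel proteins. Of its 5 neighbours on each side 5 were tested and limma called 0 in any comparison, with 1, UTP3 (−0.55), at an unadjusted p below 0.05 at D15 and none later. ODAPH lies elsewhere on chromosome 4, and 7 of its 10 neighbours were tested. Of these NAAA, a lysosomal amidase, was higher at D15 (1.11) and lower after DMSO removal (−1.46), and AREG, the growth factor amphiregulin, was lower with DMSO (−1.72) and higher after removal (1.54). These 2 calls after removal stand beside 5.08% of all genes called higher and 1.98% called lower. HAPLN1 lies on chromosome 5, where all 10 neighbours were tested and EDIL3, a secreted integrin ligand on the side away from VCAN, was called lower at D15 (−1.82). At D15, 5.68% of all genes tested were called higher and 3.82% lower, and nothing is read from the neighbours' counts.

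The genes with the pattern most like each of the 3 over the 20 arrays were all highest at D4 as well. For AMTN they were the transcript NM_004105 (Pearson r 0.973), PLEKHO1 (0.971) and SLC26A2, a sulfate transporter (0.968). For ODAPH they were NM_004105 again (0.934), the kinase PLK2 (0.93) and GNG12, a G protein subunit (0.923). For HAPLN1 they were FRMD5 (0.953), PALLD, which encodes the actin-binding protein palladin (0.949), and ZNF503 (0.944). The arrays and the D4 step are shared by all of these, so no test is given. Between the 3 genes r was 0.917 for AMTN and ODAPH, 0.895 for AMTN and HAPLN1 and 0.883 for ODAPH and HAPLN1 over 20 arrays. On the 16 arrays after D4 these were 0.533, 0.343 and 0.253, over values most of which were not well above background.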

How the data were processed

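RNA of 20 HepaRG cultures was labelled with 1 dye and put on Agilent 8x60K arrays. The authors deposited Feature Extraction output (version 10.7.3.1 per the processing notes, 10.7.1.1 per the file headers), in which the processed signal is the intensity of a spot after background subtraction and detrending, with no scaling between arrays. The deposited files also hold median spot and background intensities, flags, and a matrix of log2 values relative to 1 baseline per probe that is not known. After shifting each array by its 75th percentile, the log2 processed signals matched these deposited log2 values, up to that baseline, with an array shift of at most 0.0032 over 21741 probes.

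Outlier spots were left out, spots of a probe were averaged, and each array was scaled to a common 75th percentile over probes, signals under 1 were raised to 1 and log2 was taken. A probe was kept where some condition had it well above background on each of its 4 arrays (26538 of 42405), with the brightest probe per gene. Names came from RefSeq accessions (24826 probes with a symbol). A fit of 5 condition means over 20 arrays used limma 3.58.1 in R 4.3.3, tested on simulated data. The call thresholds and Benjamini-Hochberg adjustment follow the methods. Depth is limited by the number of arrays. A bound sets the bright mean against, per array, the higher of the lowest signal well above background and the dim signal. Signals not called well above background could exceed that lowest signal, so a bound holds by this rule only.

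AMTN, ODAPH and HAPLN1, the gene lists and the motifs were chosen with earlier results of these data known. Genes named are these 3, the 3 genes most like each, their 5 neighbours on each side, genes ranked around them, and from each list genes called at D15 or after DMSO removal, at most 4 by size. A few list genes are not reported here. Other genes of the lists were named after their values were seen, as were the genes named for a signal at D4 only. Arrays of equal replicate number deviated together more than others, though not in every pair. The median correlation of deviations was 0.256 over 40 pairs of equal number (lowest −0.309), beside −0.157 over 120 other pairs. The labels state no pairing, so the reported fit treated arrays as unpaired. Arrays on 1 slide deviated together (44 pairs, median 0.376, lowest 0.114), and slide was an alternative block. Other alternatives were quantile normalization, normexp background correction on median intensities, the deposited matrix, other filters and floors, scan session and replicate blocks, fewer arrays, the methods' t-test and leaving out arrays. Scaling by the percentile over spots and leaving out D4 or D15 arrays for the 3 genes were chosen after seeing the data. The ChIP-seq data of the study were not analysed here.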

Additional observations from a re-analysis of the deposited data

Results flagged for a closer look

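AMTN at D15 had 1 replicate far from the others. In replicate 4 its log2 value was −6.16, against −4.54 in the nearest of the other 3 arrays, a gap of 0.864 of the range of the condition. This was 1 of 15 gene and condition groups examined in this way, and chance flags about 1 in 20. Whether the spot or the culture differed was not tested.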

How the results depend on the processing

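Precision is set by 4 arrays per condition and, for these dim probes, by the background. The lower AMTN with DMSO was called in 9 of 12 other settings and was not with normexp (−0.19), a floor of 10 (−0.31) and the methods' t-test (−2.40, adjusted p = 0.0215). The higher AMTN after removal was called in 7 of 12 and was not with quantile normalization (2.06), normexp (0.17), a floor of 10 (0.42), only the arrays compared (2.41, adjusted p = 0.007) and the methods' t-test (2.41, adjusted p = 0.0334). A floor of 10 sets most D30 and D34 values to 1 value, which shows why it shrinks them. The cause was not tested for the others. Leaving out 1 array gave −2.76 to −2.18 and 2.19 to 2.78, called every time. AMTN in D34 ± DMSO against D30 − DMSO changed sign with quantile normalization (−0.0819), normexp (−0.0179) and in 5 of 8 fits without 1 array (−0.19 to 0.37), and was never called. In these 3 comparisons ODAPH and HAPLN1 were called in 0 fits of any setting in which they could be tested. For HAPLN1 the floor of 1 fixed this in the reported fit, since all its D30 and D34 signals lay below 1. A floor of 10 likewise made all these HAPLN1 values, and all ODAPH values but the highest, equal. Nothing is therefore read from this count for HAPLN1. With only probes well above background on all arrays, none of the 3 genes could be tested.

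Over all genes, normexp gave 753 higher at D15, 249 higher and 436 lower with DMSO, 613 higher and 258 lower after removal, and 27 lower in D34 ± DMSO than in D30 − DMSO. The filter for all arrays gave 594 lower with DMSO and 751 higher after removal. The methods' t-test gave 176 higher and 355 lower, then 328 and 132, then 12 and 0. Lower genes in D34 ± DMSO against D30 − DMSO numbered 80 with the slide as a block, 71 with the scan session, and 26 to 49 without 1 array. Only the arrays compared gave 148 higher and 15 lower. With the replicate number as a block there were 77 lower, no AMTN call changed (−2.40, adjusted p = 0.000979, and 2.41, adjusted p = 0.000782), and 16 of 20 arrays correlated best with an array of their own number, a hint from the data only.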
